A study of Homo sapiens with 9 samples.

Results

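The HOX genes are the 39 homeobox genes that lie in 4 clusters of the human genome, and they were described here across parental RKO cells and RKO clones with a targeted DIP2C gene. Members were taken by symbol, as HOXA, HOXB, HOXC or HOXD followed by a number, and all 39 were among the 23619 genes in the files. RKO is a human colorectal cancer cell line. DIP2C encodes a conserved protein with a predicted binding domain for DMAP1, a partner of the DNA methyltransferase DNMT1. The cell line was targeted with recombinant adeno-associated virus, which deleted part of exon 9 of DIP2C, and cells were grown for 48 h before RNA was taken for sequencing.

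There were 9 libraries, of which 2 came from parental RKO (parental control, never targeted), 2 from DIP2C -/- clones (E3 and C10) and 5 from DIP2C +/- clones (A6-C9, A9-A12, F6-A7, G1-A5 and H9-A4). Each clone was 1 library, so a clone has no replicate of its own, and the labels do not say whether the parental libraries were separate cultures. The p-values therefore measure the spread between these libraries. The paper says that both DIP2C -/- clones were made by further targeting of 1 DIP2C +/- clone, so they share an origin. It describes fewer DIP2C +/- clones than these 5, and the labels do not say whether some of the 5 share an origin. The tests nevertheless take every library as independent. Every clone went through single-cell cloning and drug selection and the parental cells did not, and no clone that passed through targeting with DIP2C intact was analysed here. Loss of DIP2C and cloning therefore cannot be told apart in a comparison with parental cells.

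HOX proteins are transcription factors that bind DNA through a homeodomain, usually together with PBX and MEIS proteins of the TALE homeodomain class. Within a cluster the genes are ordered by paralog group, and in the embryo that order matches the order in which they are switched on along the body axis, anterior genes first. Adult epithelia keep part of the pattern, and in the colon genes of the middle and posterior groups are used. Polycomb complexes hold HOX clusters silent, and trithorax-type complexes built around MLL keep them active.

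The promoters of a pair of HOXD genes, picked after their values in single clones were seen, are shown first. HOXD1 passed the gene filter of the test below only through its counts in H9-A4 and A6-C9, so no direction is read from it. The RefSeq promoter table (GRCh38.p14) held 20 of the 39 symbols and did not hold HOXB2, HOXB3, HOXC10 or HOXC13. The 250 bases before the start site were used, and their positions on GRCh37 were found by an exact match. The HOXD4 window, chr2:177016028-177016277 on the plus strand, lies in an intron of HOXD3. The HOXD1 window, chr2:177053146-177053395 on the plus strand, overlaps an exon of the antisense noncoding gene HAGLR. CG dinucleotides, the sites of DNA methylation, are in capitals.
HOXD4: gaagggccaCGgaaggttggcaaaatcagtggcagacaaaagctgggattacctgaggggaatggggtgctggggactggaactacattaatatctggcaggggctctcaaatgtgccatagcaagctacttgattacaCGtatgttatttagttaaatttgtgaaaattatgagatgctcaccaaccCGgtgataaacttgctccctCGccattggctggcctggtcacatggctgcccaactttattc
HOXD1: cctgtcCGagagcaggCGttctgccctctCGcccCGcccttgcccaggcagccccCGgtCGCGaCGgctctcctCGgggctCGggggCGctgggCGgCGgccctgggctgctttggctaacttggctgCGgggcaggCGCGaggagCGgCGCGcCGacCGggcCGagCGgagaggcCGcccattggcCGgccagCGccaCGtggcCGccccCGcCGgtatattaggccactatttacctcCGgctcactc

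The HOXD1 window held 31 CG dinucleotides and the HOXD4 window held 4. The median over the 35116 promoters of the table was 11. A count of at least 31 was found in 10.9% of promoters, and a count of at most 4 in 34.3%. The sequence TATAAA was on neither strand of either window, and 10.7% of all promoters held it on either strand. Methylation was not measured in the files analysed here.

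The targeted gene and the libraries were examined before the HOX genes. DIP2C was at 61 and 70.9 CPM in the parental libraries, at 17.4 (E3) and 22.8 (C10) in the DIP2C -/- clones, and between 33.6 (A6-C9) and 56.3 (H9-A4) in the DIP2C +/- clones, so the 3 groups did not overlap. CPM expresses the estimated count of a gene relative to its library's total, with TMM scaling between libraries. Library totals were 14772593 to 21486483 estimated counts, and 3 counts, the smallest number taken as detected, corresponded to 0.148 to 0.194 CPM. Clone H9-A4 stood apart from the other DIP2C +/- clones, with a chi-square per degree of freedom of 102.11 to 120.13 against them, where the other pairs in that group gave 21.88 to 56.15 and the parental pair 34. H9-A4 was also the DIP2C +/- clone nearest to parental cells. In it 1.21% of all genes were at least 4-fold from the parental mean, against 2.43% to 3.34% in the other DIP2C +/- clones. Results that rest on H9-A4 are given with and without it. Since it was singled out from these same data, calls made without it are less cautious and are no independent check. Of the 10 intestinal epithelium markers, KRT18 was at 121 CPM or more, CDX2 at 15.6 or more and KRT8 at 7.01 or more in every library. CDX1, KRT19 and KRT20 were under 0.5 CPM in all 9, and VIL1, LGR5 and MUC2 reached at most 0.938, 0.644 and 1.64. EPCAM was at 3.78 CPM in H9-A4 and at or under 1.02 elsewhere. The summed level of these markers was 249 to 307 CPM in parental, 152 to 184 in DIP2C -/- and 183 to 332 in DIP2C +/- libraries, and its part in the HOX results was not tested. Most of that sum was KRT18, at 208 and 265 CPM in parental cells, so it mainly follows 1 gene. Summed markers of fibroblasts (6 genes) reached 7.45 CPM, of blood cells (5 genes) 1.95 and of endothelium (3 genes) 4.21 in any library.

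RKO expressed genes of all 4 clusters. In parental cells 33 of the 39 genes were detected in each library, and 32 (G1-A5) to 36 (C10) in the clones. The gene filter of the test kept 34. The 5 genes it removed were HOXB1, HOXC12, HOXD10, HOXD11 and HOXD12, of which none exceeded 0.633 CPM in any library (HOXD12 in A9-A12). HOXB1 acts in the hindbrain, and HOXD10 to HOXD12 are best known from the limb. HOXD1 passed the filter only through its counts in H9-A4 and A6-C9, and HOXD13 only through those in E3 and F6-A7.

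The clusters differed in output. HOXA (chromosome 7, 11 genes) contributed a median of 41.7% of the summed HOX CPM over the 9 libraries and HOXB (chromosome 17, 46605888 to 46806112, 10 genes) 36.9%. HOXC (chromosome 12, 54332615 to 54449814, 9 genes) gave 14.6%, and HOXD (chromosome 2, 176957449 to 177055635, 9 genes) gave 5.49%. The order of HOXA and HOXB in these medians is that of the clones. In the parental libraries HOXB led, with 40.2% and 41.6% against 35.2% and 36.5% for HOXA. Positions are on GRCh37 from GENCODE 44.

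Levels of different genes were compared per kb of the canonical transcript. In parental cells the highest level per kb was that of HOXA9, a regulator of blood progenitors that is active in leukemia, at 23.5 and 25.4 CPM per kb. HOXB7 was at 20.1 and 16.4 CPM per kb and HOXB9 at 15.6 and 19. These neighbours in the order overlapped and cannot be ranked against each other. HOXA7, at 13.4 and 13.3 CPM per kb, was below both of them in both parental libraries and above HOXB2, at 12.7 and 9.63. HOXA9, HOXA7, HOXB7 and HOXB9 were among the 5 highest HOX genes per kb in every one of the 9 libraries, and HOXA9 came first in all but G1-A5, where HOXA7 did.

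Position along the cluster did not sort the levels from one end to the other. In HOXA the parental levels per kb peaked at HOXA7 and HOXA9, and in HOXB at HOXB7 and HOXB9, with a further high stretch near the anterior end, where HOXB2, HOXB3 and HOXB4 averaged 11.1, 7.51 and 9.29 CPM per kb. The anterior genes HOXA2 and HOXA3 were low, at 0.491 and 0.167 CPM per kb, and so was the most posterior, HOXA13, at 0.847. HOXB13, which is restricted to posterior tissues such as prostate and rectum, was at 5.79 CPM per kb. In HOXC the highest were HOXC6 at 7.48 and HOXC5 at 6.77 CPM per kb. In HOXD only HOXD9 exceeded 5 CPM per kb, at 5.04, and HOXD10 to HOXD13 were all at or under 0.113.

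Some of these levels may share reads. In the annotation used here, exons of HOXB4 and HOXB6 overlap HOXB3 on the same strand, and exons of HOXD11 overlap HOXD10. The paper took gene coordinates from the UCSC database, so the counts may rest on other exon limits. The span of HOXC4 covers HOXC5 and part of HOXC6. In the first parental library and E3, counts of HOXC5 and HOXC6 were not whole multiples of the step described below. Those of HOXB3 and HOXB4 were. HOXC5 and HOXC6 may therefore not be separate counts, and sharing was not tested. For 17 of the 39 genes an antisense gene overlaps exons, among them HOXB2 (HOXB-AS1), HOXB3 (HOXB-AS1 and HOXB-AS3), HOXC10 (HOXC-AS3) and HOXC13 (HOXC13-AS). Whether the counting used strand is not given in the sources used here, so reads from both strands may be in 1 value. The readthrough transcript HOXA10-HOXA9 is counted as a gene of its own and stayed at or under 1.16 CPM.

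Summed HOX expression was lower in the clones. It was 409.1 and 406.4 CPM in the parental libraries, 265.5 in E3, 287.3 in C10 and 401.8 (H9-A4), 350.3 (A9-A12), 349.9 (G1-A5), 322.3 (A6-C9) and 320 (F6-A7) in the DIP2C +/- clones. All 7 clones lay below both parental libraries, H9-A4 by the least. In bulk RNA, fewer cells that express a gene and less RNA per cell cannot be told apart.

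The sums of single clusters differed in how far they moved. HOXB summed to 164 and 169 CPM in parental cells and to between 96.7 (C10) and 147 (H9-A4) in the clones, and HOXC to 77.4 and 69.1 in parental cells and to between 34.5 (E3) and 67.7 (H9-A4). In both clusters all 7 clones lay below both parental libraries. HOXA summed to 144 and 148 CPM in parental cells and to between 119 (E3) and 167 (H9-A4) in the clones, of which 3 lay below both parental libraries. HOXD summed to 23.4 and 19.8 CPM and to between 13.7 (C10) and 23.8 (G1-A5), with 5 of 7 clones below. The HOXA sum of A9-A12 and of G1-A5 was 1 time the parental mean, while their HOXC sums were 0.55 and 0.7 times it. No test was made on sums over members.

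The first comparison asked how the HOX genes of the DIP2C -/- clones differed from parental cells. The median log2 fold change over the 34 tested genes was -0.60, with 28 below 0, against 0.02 over all 15532 genes tested. By cluster the median was -0.17 in HOXA, -0.88 in HOXB, -0.83 in HOXC and -0.64 in HOXD. All 9 tested HOXB genes and 7 of 8 HOXC genes had a fold change below 0, as did 8 of 11 in HOXA and 4 of 6 in HOXD. Both clones lay below both parental libraries in 23 HOX genes (67.6%), where 26.4% of all genes did so, and above both in 4 (HOXA2, HOXC9, HOXD1 and HOXD13), where 27.2% did. HOXD1 and HOXD13 passed the filter only through clones, so nothing is read from their place above the parental libraries.

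With all 9 libraries sharing 1 estimate of the spread, no HOX gene passed an adjusted p of 0.05 in edgeR's quasi-likelihood test, and 0.00644% of all genes did. At an unadjusted p under 0.05, 11 of 34 HOX genes were lower, against 6.74% of all genes, and 0 were higher, against 5.94%. The 11 were HOXA11, HOXB2, HOXB3, HOXB6, HOXB7, HOXB8, HOXB9, HOXC5, HOXC6, HOXC10 and HOXC13. That count was 6 without the first parental library and 4 without E3. DESeq2's Wald test called HOXB2 and HOXB3 lower at an adjusted p under 0.05, where it called 1.08% of all genes lower. When edgeR was given only the 4 libraries compared, 8 of 32 HOX genes were lower at an adjusted p under 0.05 (HOXB2, HOXB3, HOXB7, HOXB8, HOXB9, HOXC6, HOXC10 and HOXC13), against 6.82% of all genes. Without H9-A4, 3 of 33 (HOXB2, HOXB3 and HOXC10) were lower, against 2.44%, and 0 were higher, against 2.32%.

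The second comparison took the DIP2C +/- clones against parental cells. The median log2 fold change of the HOX genes was -0.21, with 25 of 34 below 0, against 0.02 over all genes. It was -0.01 in HOXA, -0.50 in HOXB, -0.46 in HOXC and -0.09 in HOXD. Without H9-A4 the median was -0.32 over the HOX genes, -0.24 in HOXD and close to 0 in HOXA, while those of HOXB and HOXC were -0.52 and -0.56. All 5 clones lay below both parental libraries in 9 genes (HOXB2, HOXB6, HOXB7, HOXB8, HOXC5, HOXC8, HOXC10, HOXC13 and HOXD4), where 7.15% of all genes did, and above both only in HOXA7, where 7.06% did. For HOXC8 and HOXC10 this rests on narrow margins. H9-A4 and the second parental library were both at 12 CPM after rounding in HOXC8, and at 9.9 and 10.1 in HOXC10. No HOX gene passed an adjusted p of 0.05 in edgeR, and 0.0966% of all genes did. At an unadjusted p under 0.05, 6 were lower (HOXB2, HOXB6, HOXB7, HOXB8, HOXC10 and HOXD4), against 5.05% of all genes, and 0 were higher, against 6.51%. The count of 6 was 1 without the first and 3 without the second parental library. Without H9-A4, HOXB2 and HOXC10 were lower at an adjusted p under 0.05, against 3.58% of all genes, and 0 HOX genes were higher, against 4.37%.

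Taken as 1 average, the 7 clones gave a median HOX log2 fold change of -0.32 against 0.02 over all genes. No HOX gene passed an adjusted p of 0.05 in edgeR, and 0.18% of all genes did. At an unadjusted p under 0.05, 10 HOX genes were lower, against 6.47%, and 0 higher, against 6.91%. The 10 were HOXB2, HOXB3, HOXB6, HOXB7, HOXB8, HOXC5, HOXC6, HOXC10, HOXC13 and HOXD4, and their count was 3 without the first and 5 without the second parental library. In 9 genes every clone lay below both parental libraries, where 5.56% of all genes did so, and in 0 every clone lay above, where 5.34% did. The count of 9 was 14 without the second parental library. Without H9-A4 the other 6 clones lay below in 13 genes, where 11.5% of all genes did, and above in 0, where 12.4% did. DESeq2 called HOXB2 lower, where it called 0.921% of all genes lower. In edgeR without H9-A4, HOXB2, HOXB3, HOXC10 and HOXC13 were lower at an adjusted p under 0.05, against 4.47% of all genes, and 0 HOX genes were higher, against 4.48%.

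**Figure D1:**
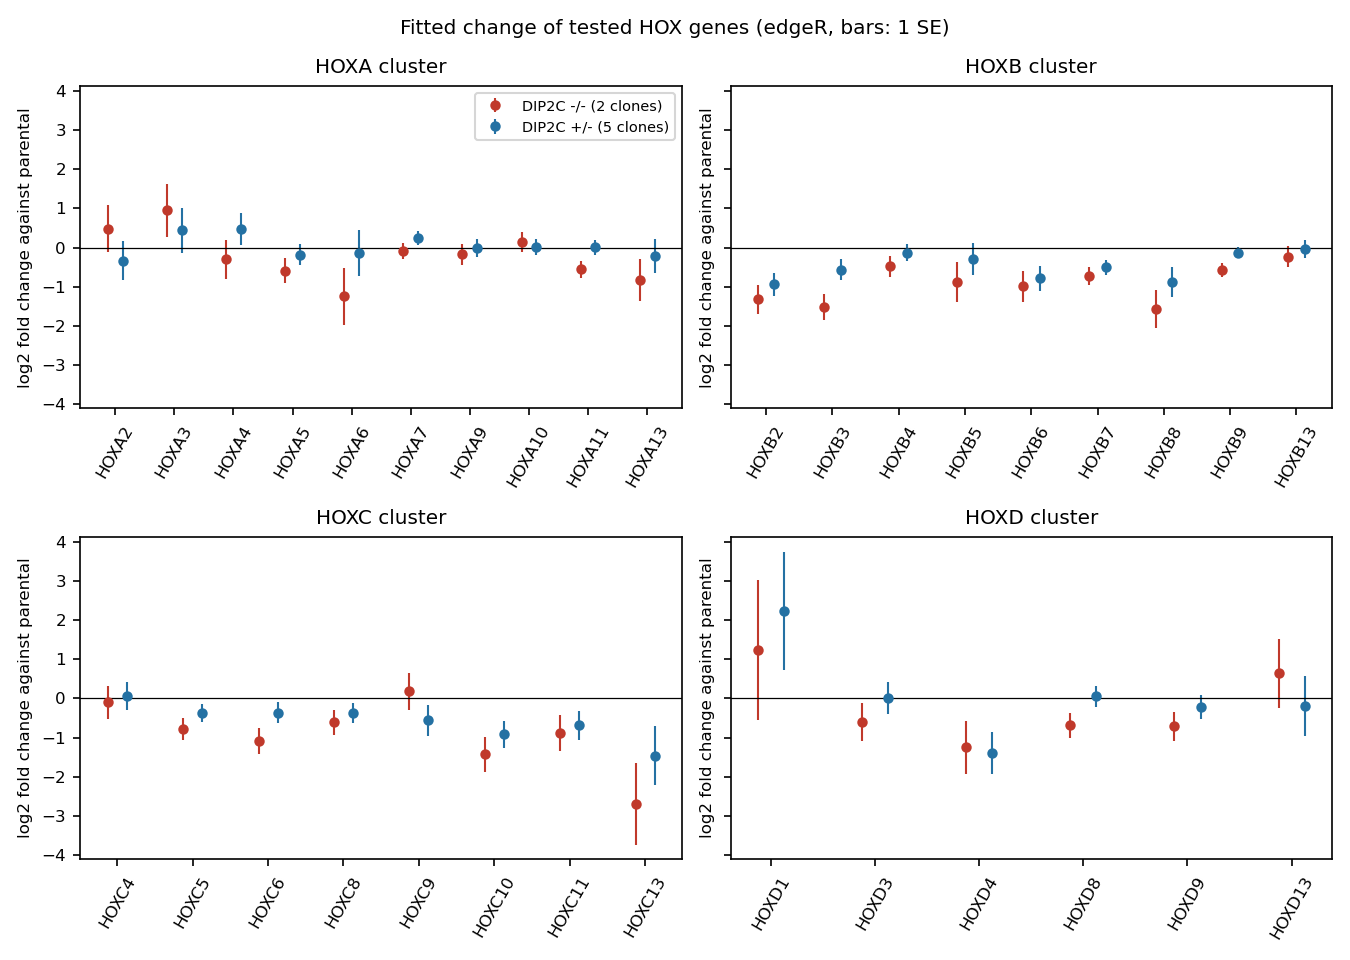
Fitted log2 fold change against parental RKO (vertical axis) of tested HOX genes in paralog order, from edgeR with all 9 libraries; red is DIP2C -/- (2 clones), blue is DIP2C +/- (5 clones) and bars are 1 SE. All HOXB points lie below 0 in both genotypes, whereas the HOXA points lie on both sides; HOXD1, with counts under the detection floor in parental cells, has the widest bars.

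HOXB2 and HOXB3, which pattern the hindbrain in the embryo, lie side by side at the anterior end of HOXB (chromosome 17, 46618256 to 46622471 and 46626232 to 46682274, minus strand). HOXB2 was at 21.3 and 16.2 CPM in the parental libraries, at 7.36 in E3 and 7.62 in C10, and at 7.14 in F6-A7, 15.6 in H9-A4, 7.98 in A9-A12, 9.24 in G1-A5 and 9.18 in A6-C9. All clones were below both parental libraries and H9-A4 was close to the lower of them. Its log2 fold change over the 7 clones was -1.04 (SE 0.28, adjusted p 0.247 in edgeR) and -1.22 (SE 0.20, adjusted p 0.00326) without H9-A4. HOXB3 was at 26.6 and 23 CPM in parental cells, 8.43 in E3, 8.85 in C10, 11.1 in F6-A7, 24.2 in H9-A4, 19.1 in A9-A12, 16.2 in G1-A5 and 13.4 in A6-C9. H9-A4 lay between the parental libraries and every other clone lay below both. Its log2 fold change was -0.83 over the 7 clones (SE 0.25, adjusted p 0.278 in edgeR) and -0.99 (SE 0.20, adjusted p 0.0119) without H9-A4.

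The middle HOXB genes followed. HOXB4, known for expanding blood stem cells, was at 16.8 and 20.4 CPM in parental cells, 15.1 in E3, 11.6 in C10, 16.2 in F6-A7, 21.6 in H9-A4, 17.9 in A9-A12, 16.2 in G1-A5 and 13.1 in A6-C9. Both DIP2C -/- clones lay below both parental libraries, and the DIP2C +/- clones overlapped with them. HOXB5 was at 2.73 and 1.98 CPM in parental cells, 0.823 in E3, 1.71 in C10, 1.39 in F6-A7, 2.17 in H9-A4, 2.36 in A9-A12, 1.87 in G1-A5 and 1.84 in A6-C9. Only H9-A4 and A9-A12 fell within the parental range. HOXB6 was at 7.25 and 8.79 CPM in parental cells, 4.41 in E3, 3.68 in C10, 3.54 in F6-A7, 6.16 in H9-A4, 3.38 in A9-A12, 5.58 in G1-A5 and 4.64 in A6-C9, with every clone below.

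HOXB7 was at 27.4 and 22.4 CPM in parental cells, 14.4 in E3, 15.6 in C10, 14 in F6-A7, 18.3 in H9-A4, 19.9 in A9-A12, 17 in G1-A5 and 18.6 in A6-C9. HOXB8 was at 6.48 and 7.39 CPM in parental cells, 2.42 in E3, 2.24 in C10, 2.57 in F6-A7, 3.62 in H9-A4, 5.62 in A9-A12, 4.9 in G1-A5 and 2.32 in A6-C9. In both genes H9-A4 sat with the other clones, below both parental libraries. The log2 fold change over the 7 clones was -0.57 for HOXB7 (SE 0.17, adjusted p 0.282 in edgeR) and -1.07 for HOXB8 (SE 0.36, adjusted p 0.304). HOXB9 was at 40.3 and 49.2 CPM in parental cells, 29.1 in E3, 31.2 in C10, 39.6 in F6-A7, 40.7 in H9-A4, 45.5 in A9-A12, 39.5 in G1-A5 and 39.2 in A6-C9. HOXB13 was at 15.4 and 19.8 CPM in parental cells, 16 in E3, 14 in C10, 15.5 in F6-A7, 14.5 in H9-A4, 22.5 in A9-A12, 18.7 in G1-A5 and 14.9 in A6-C9. These posterior members overlapped with parental cells in the DIP2C +/- clones, and only HOXB9 was below both parental libraries in both DIP2C -/- clones.

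In HOXC the genes with the largest differences were posterior. HOXC10, which specifies lumbar motor neurons (chromosome 12, 54378849 to 54384063, plus strand), was at 13.1 and 10.1 CPM in parental cells, 3.15 in E3, 5.44 in C10, 4.26 in F6-A7, 9.9 in H9-A4, 4.86 in A9-A12, 5.79 in G1-A5 and 5.85 in A6-C9. All clones lay below, H9-A4 by the least. Its log2 fold change over the 7 clones was -1.06 (SE 0.33, adjusted p 0.287 in edgeR) and -1.25 (SE 0.27, adjusted p 0.0153) without H9-A4. HOXC13, a regulator of hair keratin genes (chromosome 12, 54332615 to 54340328, plus strand), was at 8.83 and 10.5 CPM in parental cells, 0.194 in E3, 2.77 in C10, 1.85 in F6-A7, 7.89 in H9-A4, 1.06 in A9-A12, 4.13 in G1-A5 and 2.71 in A6-C9. Its levels among the clones ran from near the detection floor to near the parental level. In E3 it rested on 3.003 estimated counts, or 4 reads, a ratio to the parental mean of 0.0201 (95% counting interval 0.00547 to 0.0514, for counting error only). Its log2 fold change over the 7 clones was -1.81 (SE 0.71, adjusted p 0.327 in edgeR) and -2.22 (SE 0.60, adjusted p 0.0439) without H9-A4.

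HOXC11 was at 10.9 and 8.56 CPM in parental cells, 5.52 in E3, 5.06 in C10, 4.42 in F6-A7, 9.34 in H9-A4, 3.29 in A9-A12, 5.96 in G1-A5 and 7.1 in A6-C9. HOXC9 was at 2.82 and 3.32 CPM in parental cells, 3.54 in E3, 3.41 in C10, 1.49 in F6-A7, 2.37 in H9-A4, 1.6 in A9-A12, 3.24 in G1-A5 and 1.74 in A6-C9. Between the larger differences of HOXC10 and HOXC8, HOXC9 was thus not lower in the DIP2C -/- clones. HOXC8, a thoracic HOX gene, was at 12.5 and 12 CPM in parental cells, 6.73 in E3, 9.33 in C10, 10.3 in F6-A7, 12 in H9-A4, 8.57 in A9-A12, 9.75 in G1-A5 and 7.06 in A6-C9. HOXC6 was at 14.2 and 10.5 CPM in parental cells, 6.56 in E3, 5.06 in C10, 8.49 in F6-A7, 13.4 in H9-A4, 9.22 in A9-A12, 9.34 in G1-A5 and 7.71 in A6-C9, again with H9-A4 inside the parental range. HOXC5 was at 11.6 and 10.2 CPM in parental cells, 6.18 in E3, 6.35 in C10, 6.85 in F6-A7, 9.26 in H9-A4, 8.74 in A9-A12, 9.29 in G1-A5 and 7.81 in A6-C9, with all clones below. HOXC4, which acts in lymphocytes, was at 3.42 and 3.96 CPM in parental cells, 2.57 in E3, 4.32 in C10, 3.92 in F6-A7, 3.58 in H9-A4, 3.15 in A9-A12, 3.39 in G1-A5 and 5.27 in A6-C9, and overlapped with them.

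**Figure D2:**
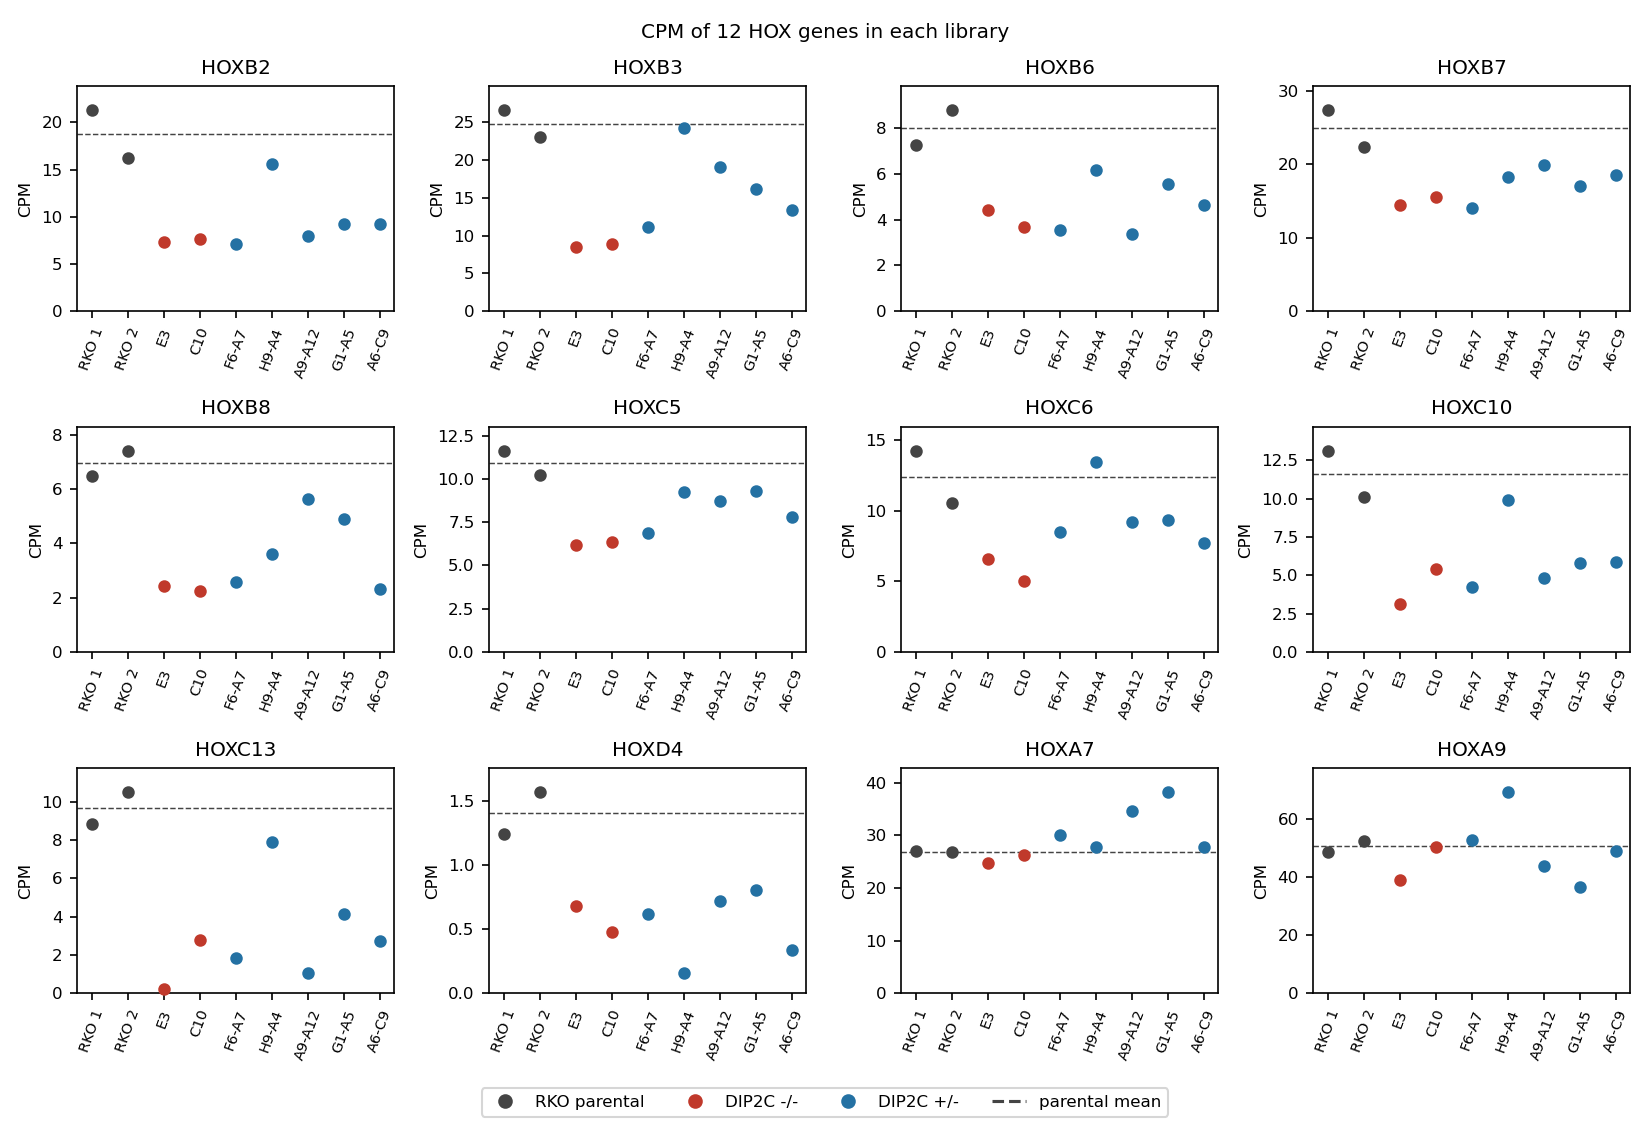
CPM (vertical axes from 0) of 12 HOX genes in each of the 9 libraries, black for parental RKO, red for DIP2C -/- and blue for DIP2C +/-, with the parental mean as a dashed line. H9-A4 lies near the parental libraries in HOXB2 (15.6), HOXB3 (24.2), HOXC6 (13.4) and HOXC10 (9.9) and is the lowest library in HOXD4 (0.161); HOXA7 and HOXA9 lie around the parental mean.

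In HOXA, no gene tested other than HOXA7 had all 5 DIP2C +/- clones on the same side of both parental libraries. HOXA9 was at 48.6 and 52.4 CPM in parental cells, 39.1 in E3, 50.3 in C10, 52.7 in F6-A7, 69.2 in H9-A4, 43.8 in A9-A12, 36.4 in G1-A5 and 48.8 in A6-C9. HOXA7 was at 27 and 26.8 CPM in parental cells, 24.7 in E3, 26.2 in C10, 30.1 in F6-A7, 27.8 in H9-A4, 34.6 in A9-A12, 38.2 in G1-A5 and 27.7 in A6-C9. HOXA7 was thus below both parental libraries in the DIP2C -/- clones and above both in the DIP2C +/- clones, while its log2 fold change over the 7 clones was 0.15 (SE 0.17, adjusted p 0.754 in edgeR). The parental values were nearly equal, and C10, A6-C9 and H9-A4 lay just outside them. No direction by genotype is therefore read from HOXA7. HOXA10, which patterns the uterus, was at 16.9 and 22.8 CPM in parental cells, 24.8 in E3, 19.2 in C10, 24.6 in F6-A7, 21.1 in H9-A4, 17.2 in A9-A12, 19.4 in G1-A5 and 17.8 in A6-C9. HOXA11 was at 24.7 and 17.6 CPM in parental cells, 13.1 in E3, 15.6 in C10, 20.3 in F6-A7, 21.7 in H9-A4, 22.8 in A9-A12, 22.6 in G1-A5 and 18.9 in A6-C9. HOXA11 was below both parental libraries only in the DIP2C -/- clones.

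HOXA13, active in digits and the hindgut, was at 4.31 and 4.19 CPM in parental cells, 1.4 in E3, 3.3 in C10, 3.39 in F6-A7, 5.68 in H9-A4, 2.28 in A9-A12, 3.53 in G1-A5 and 3.29 in A6-C9. HOXA5, needed for lung development, was at 11.5 and 10.8 CPM in parental cells, 5.62 in E3, 9.17 in C10, 8.32 in F6-A7, 7.65 in H9-A4, 11.3 in A9-A12, 11.6 in G1-A5 and 10.1 in A6-C9. HOXA13 exceeded the parental level only in H9-A4, and HOXA5 only in G1-A5. HOXA6 was at 2.43 and 1.98 CPM in parental cells, 1.02 in E3, 0.853 in C10, 1.59 in F6-A7, 0.765 in H9-A4, 4.39 in A9-A12, 1.83 in G1-A5 and 1.35 in A6-C9. HOXA4 was at 2.94 and 4.13 CPM in parental cells, 3.24 in E3, 2.51 in C10, 4.16 in F6-A7, 7.73 in H9-A4, 5.78 in A9-A12, 3.83 in G1-A5 and 3.09 in A6-C9. HOXA6 had DIP2C +/- clones below and above both parental libraries, and HOXA4 had 3 above both and none below.

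HOXA2 stayed between 0.298 (G1-A5) and 1.31 CPM (E3), with 0.725 and 0.931 in parental cells. HOXA3 stayed between 0.256 and 1.23 CPM (C10), and its lowest value was that of a parental library, the other being 0.757. In HOXA2 both DIP2C -/- clones lay above both parental libraries and the DIP2C +/- clones overlapped with them. In HOXA3 clones of both genotypes overlapped with parental cells.

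HOXD held the least RNA. HOXD9 was at 11.3 and 7.57 CPM in parental cells, 5.52 in E3, 5.97 in C10, 6.67 in F6-A7, 8.33 in H9-A4, 7.64 in A9-A12, 11.8 in G1-A5 and 5.9 in A6-C9. HOXD8 was at 5.89 and 6.11 CPM in parental cells, 3.97 in E3, 3.46 in C10, 6.73 in F6-A7, 6.24 in H9-A4, 7.01 in A9-A12, 5.71 in G1-A5 and 5.41 in A6-C9. HOXD3 was at 4.44 and 3.84 CPM in parental cells, 2.62 in E3, 2.82 in C10, 2.26 in F6-A7, 4.59 in H9-A4, 3 in A9-A12, 5.19 in G1-A5 and 6.09 in A6-C9. All 3 were below both parental libraries in both DIP2C -/- clones and overlapped with them in the DIP2C +/- clones.

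HOXD4, a hindbrain HOX gene whose promoter window is the CG-poor one above (gene body at chromosome 2, 177016278 to 177017954, plus strand), was at 1.24 and 1.57 CPM in parental cells, 0.678 in E3, 0.48 in C10, 0.616 in F6-A7, 0.161 in H9-A4, 0.718 in A9-A12, 0.809 in G1-A5 and 0.338 in A6-C9. Every clone was below both parental libraries, and here H9-A4 was the lowest, with 2.844 estimated counts, or 4 reads, and a ratio to the parental mean of 0.115 (95% counting interval 0.0312 to 0.293). The log2 fold change over the 7 clones was -1.35 (SE 0.50, adjusted p 0.321 in edgeR). HOXD1, with the CG-rich window (gene body at 177053396 to 177055635, plus strand), had 1.549 and 2.229 estimated counts in the parental libraries, under the floor of 3. It had 0 in A9-A12 and G1-A5, 5.256 in E3, 4.114 in C10, 5.899 in F6-A7, 15.64 in H9-A4 and 26.51 in A6-C9, which came to 0.886 CPM in H9-A4 and 1.35 in A6-C9. Among the DIP2C +/- clones it was thus detected in 3 of 5. HOXD13 stayed between 0.0426 (G1-A5) and 0.565 CPM (F6-A7), with 0.256 and 0.291 in parental cells.

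The genotypes were also set against each other. The median log2 difference of DIP2C +/- over DIP2C -/- clones was 0.40 over the 34 HOX genes, with 27 above 0, against 0.01 over all genes, and 0.27 without H9-A4. No HOX gene and 0% of all genes passed an adjusted p of 0.05 in edgeR. At an unadjusted p under 0.05, 5 HOX genes were higher in DIP2C +/- clones, against 3.64% of all genes, and 0 were lower, against 1.93%. They were HOXB3 with a log2 difference of 0.95 (SE 0.29), HOXD8 with 0.73 (SE 0.27), HOXC6 with 0.72 (SE 0.29), HOXA11 with 0.57 (SE 0.20) and HOXB9 with 0.44 (SE 0.15), each with an adjusted p of 0.878. The count of 5 was 1 without E3. In each of these 5 genes both DIP2C -/- clones lay below every DIP2C +/- clone. In HOXB9, for example, the highest DIP2C -/- clone was at 31.2 CPM and the lowest DIP2C +/- clone at 39.2. The share of all genes that separate in this way was not computed, so nothing is read from the separation.

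Each clone was set against the parental mean at 4-fold, as log2 of CPM after adding a prior count of 2, with no test. HOXC13 was the only HOX gene past 4-fold in E3, F6-A7 and A9-A12, and was lower in each, where 2.72%, 2.81% and 3.34% of all genes were past 4-fold in either direction. In H9-A4 HOXD4 was past it and lower, against 1.21% of all genes. No HOX gene was past 4-fold in C10 or G1-A5, against 2.8% and 2.43% of all genes. HOXD1 was above 4-fold in H9-A4 and A6-C9, the clones through which it passed the filter, so nothing is read from it, and no other HOX gene was past 4-fold in A6-C9, against 3.21% of all genes. 1 of 34 HOX genes is 2.94%, near these shares.

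The cofactors of the HOX proteins were read from a list of 9 TALE genes, of which 7 were tested. At an unadjusted p under 0.05 over the 7 clones, PBX3 and MEIS3 were higher, against 6.91% of all genes, and PBX4 lower, against 6.47%, and none of the 7 passed an adjusted p of 0.05 in edgeR. PBX3 was at 14.1 and 15.2 CPM in parental cells, 47.9 in E3, 47.4 in C10, 52.1 in F6-A7, 12.5 in H9-A4, 51.3 in A9-A12, 20.9 in G1-A5 and 46 in A6-C9. MEIS3 was at 11.9 and 12.8 CPM in parental cells, 31 in E3, 38.2 in C10, 30.8 in F6-A7, 13.6 in H9-A4, 31.2 in A9-A12, 23.1 in G1-A5 and 44.4 in A6-C9. In both genes H9-A4 was near the parental level and the other 6 clones were above both parental libraries, as they were in 12.4% of all genes. Without H9-A4 the log2 fold change over the clones was 1.59 for PBX3 (SE 0.31, adjusted p 0.00951 in edgeR) and 1.42 for MEIS3 (SE 0.24, adjusted p 0.00421), where 4.48% of all genes were higher at an adjusted p under 0.05. PBX4 was at 1.79 and 1.92 CPM in parental cells and between 0.145 (E3) and 1.1 (A9-A12) in the clones. MEIS1, often paired with HOXA9 in leukemia, was at or under 0.719 CPM in every library.

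Of the 6 ParaHox genes, the sister group of the HOX genes, CDX2 and PDX1 were tested and neither passed an unadjusted p of 0.05. CDX2, a gut transcription factor that can activate HOX genes, was at 16 and 18.5 CPM in parental cells and between 15.6 and 19.8 in the clones, which overlapped.

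The clusters also hold noncoding genes. Of 30 listed, 17 were in the files under those symbols and 10 were tested, and over the 7 clones 0 passed an adjusted p of 0.05 in edgeR. At an unadjusted p under 0.05, HOXB-AS3 was lower, against 6.47% of all genes, with 2.13 and 3.32 CPM in parental cells and 0.145 (A6-C9) to 1.83 (G1-A5) in the clones. HOXB-AS5 was at 0.0582 CPM or less in parental cells and between 0 (C10) and 0.775 (E3) in the clones, and since it passed the filter only through clones its test is not read. In the DIP2C -/- clones alone, HOTAIRM1 and HOXA11-AS, both at the HOXA cluster, were higher and HOXA-AS4 lower at an unadjusted p under 0.05. Of all genes, 5.94% were higher and 6.74% lower at that p. HOTTIP, at the same cluster, was also higher at that p, but it too passed the filter only through clones. Its test is therefore not read. HOTAIRM1 was at 2.64 and 3.26 CPM in parental cells, 5.42 in E3 and 5.86 in C10.

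Genes that flank the clusters were read from a list of 14, of which 11 were in the files and 7 were tested. Their median log2 fold change over the 7 clones was 0.30, against 0.02 over all genes and -0.32 over the HOX genes. Both tested genes beside HOXD were below 0, MTX2 at -0.58 and KIAA1715 at -0.12, and the others were above 0. Among those others, TTLL6 passed the filter only through clones, so its direction is not read. None of the 7 passed an adjusted p of 0.05 in edgeR with all libraries. CALCOCO1, beside HOXC, was at 19.9 and 17.5 CPM in parental cells, 19.3 in E3, 31.6 in C10, 30.8 in F6-A7, 23 in H9-A4, 41.8 in A9-A12, 36.8 in G1-A5 and 43.3 in A6-C9. Only E3 fell within the parental range. It was the 1 flanking gene higher at an adjusted p under 0.05 without H9-A4, with a log2 fold change of 0.84 over the clones (SE 0.21, adjusted p 0.0344 in edgeR), where 4.48% of all genes were higher.

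Of 13 listed regulators of HOX chromatin, 11 were in the files and tested. EZH2, the methyltransferase of Polycomb repressive complex 2, was at 144 and 136 CPM in parental cells, 118 in E3, 118 in C10, 99.8 in F6-A7, 133 in H9-A4, 104 in A9-A12, 97.5 in G1-A5 and 109 in A6-C9. KDM6B, a demethylase that removes the mark set by EZH2, was at 21.1 and 29.5 CPM in parental cells, 44.4 in E3, 53.1 in C10, 51.1 in F6-A7, 23.6 in H9-A4, 89.3 in A9-A12, 46.9 in G1-A5 and 51.6 in A6-C9. EZH2 was below both parental libraries in all 7 clones, as were 5.56% of all genes. KDM6B was above both in the 6 clones other than H9-A4, as were 12.4% of all genes, and H9-A4 lay between the parental libraries. Over the clones without H9-A4 the log2 fold change was -0.38 for EZH2 (SE 0.11, adjusted p 0.0478 in edgeR) and 1.14 for KDM6B (SE 0.26, adjusted p 0.0201), where 4.47% of all genes were lower and 4.48% higher at an adjusted p under 0.05. With H9-A4 neither passed an adjusted p of 0.05. The other 9, SUZ12, EED and MLL among them, passed in neither fit.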

How the data were processed

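RNA of parental RKO cells and of DIP2C -/- and DIP2C +/- clones, grown for 48 h, was sequenced on the Ion Proton system. The authors aligned reads to hg19 with TopHat2 (2.0.4) and quantified genes with Cufflinks, given as 2.2.1 in the submitters' processing notes. What the authors deposited is 1 file per library with an estimated count for each of 23619 symbols. The step from Cufflinks output to these counts is not given in the sources used here. Between 98% and 98.5% of low values in each library were whole multiples of 1 step (within 0.02 of a step), so each library appears multiplied by a constant of its own, and fits were repeated on values divided by that step.

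Estimated counts were rounded. Genes were kept by filterByExpr (15532) and fitted in edgeR 4.0.16 (R 4.3.3) with TMM factors, 1 coefficient per genotype and all 9 libraries. The 4 contrasts were tested by the quasi-likelihood F test with Benjamini-Hochberg adjustment over all genes, and called means an adjusted p under 0.05. The average over 7 clones weighted clones equally. The biological coefficient of variation was 0.298. Each library was counted as 1 replicate. Libraries of 1 group differed by more than sampling noise, which does not show that they are independent cultures or clones. Alternatives were DESeq2 1.42.0 (Wald test), other scalings and filters, only the compared groups, each library left out and H9-A4 and A6-C9 left out together, since the paper describes fewer DIP2C +/- clones than the 5 in the files. Scripts were tested on simulated data. HOX genes and fixed lists of related genes were named, and 1 HOX gene, included in the counts and sums, is not reported here by its own values. The members and lists were chosen with earlier results of these data known, and counts at an unadjusted p and of groups that do not overlap were added after seeing the data. No batch or date is in the labels, so batches were not examined. Intervals and floors cover counting error only. Annotation was GENCODE 44 on GRCh37, which held all 39 symbols, and figures used Python 3.11.15 with matplotlib 3.10.9.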

Additional observations from a re-analysis of the deposited data

Results flagged for a closer look

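In the 5 DIP2C +/- clones, 4 of the 34 HOX genes examined had 1 clone set far apart from the others by Dixon's ratio for 5 samples, above its critical value of 0.71. Chance alone sets a clone apart in about 1 of 20 groups. The ratio was not computed over all genes, and H9-A4 stood apart from the other clones over whole libraries. The count is therefore not read as a trait of the HOX genes. HOXB2 in H9-A4 was at 15.6 CPM, with the other clones between 7.14 and 9.24. HOXC6 in H9-A4 was at 13.4 CPM, with the others between 7.71 and 9.34. HOXC10 in H9-A4 was at 9.9 CPM, with the others between 4.26 and 5.85. In these 3 genes the parental libraries were at 16.2 CPM or more, 10.5 or more and 10.1 or more. HOXB9 in A9-A12 was at 45.5 CPM, with the others between 39.2 and 40.7 and the parental libraries at 40.3 and 49.2.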

How the results depend on the processing

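Where 0 HOX genes passed an adjusted p of 0.05 with all libraries, other settings gave more, and each gene so called was lower than in parental cells. For the DIP2C -/- clones DESeq2 gave 2, only the groups compared 8 and leaving out both H9-A4 and A6-C9 2. For the DIP2C +/- clones leaving out both gave 1. For all 7 clones DESeq2 gave 1 and leaving out both 3. Leaving out each library in turn gave 0 to 3, 0 to 2 and 0 to 4 in these contrasts and 0 to 0 between the genotypes, and only the fits without H9-A4 were above 0. Where 1 parental or 1 DIP2C -/- library is left alone, it is assumed to vary like the other groups. Counts at an unadjusted p ran from 4 to 13, 1 to 8 and 3 to 12 lower and from 1 to 6 higher between genotypes, and genes with every clone below both parental libraries from 9 to 14 (7 clones) and 23 to 27 (2 DIP2C -/- clones). In single clones keeping only genes with 10 counts or more in all libraries gave 0 in E3, F6-A7, H9-A4, A9-A12 and A6-C9, since HOXC13, HOXD4 and HOXD1 then drop out, and a prior count of 0.5 gave 2 in A9-A12 and 2 in G1-A5. No HOX gene at an unadjusted p under 0.05 changed direction under any setting run. Without H9-A4, log2 fold changes near 0 in the DIP2C +/- clones changed sign for HOXA6 (-0.14 to 0.06), HOXB13 (-0.03 to 0.02), HOXA10, HOXA11 and HOXD3, as did the genotype differences of HOXC11 (0.18 to -0.03) and HOXD4 (-0.15 to 0.07). Scaling by library size, DESeq2 size factors, no filter and division by the step changed no call. No paired analysis was possible because the clones carry names and share no replicate numbers with the parental libraries. Depth limits HOXD1, HOXD4, HOXD13 and the 5 untested genes, which lie near the floor of 3 counts.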
